A study of Mus musculus with 2 samples.

Results

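The genes described here are 10 markers of zones of the lung vasculature: Gja4, Gja5, Sema3g, Vwf, Plvap, Aplnr, Apln, Car4, Ednrb and Kdr. They were chosen by symbol and are 10 of the 32285 gene rows measured. Each symbol matched 1 row. They were read in single cells of fetal mouse lung, first among cells carrying at least 2 unique molecular identifiers (UMIs, counted mRNA molecules) of Cldn5, the tight junction protein of endothelial cells, and then in cells with no Cldn5 UMI.

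Blood leaves the heart for the lung in arteries, whose endothelium is patterned by Notch signalling and coupled by the gap junction proteins connexin 37 and connexin 40, the products of Gja4 and Gja5. The alveolar capillary bed holds general capillary cells, which carry Plvap and the apelin receptor Aplnr, and aerocytes, large thin cells at the gas exchange surface that carry Car4, Ednrb and, in many cases, the ligand apelin (Apln). Venous and large vessel endothelium makes von Willebrand factor (Vwf), and Kdr, the main receptor for VEGF-A, marks endothelium broadly and aerocytes strongly.

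The study asked how dexamethasone (DEX), a synthetic glucocorticoid, given to pregnant mice affects immune cells of the fetal lung. Wild-type mothers aged 9 weeks drank water with 1.3 µg/ml DEX from gestation day 12, or PBS as control, and fetal lungs were taken at gestation day 18. Live CD45+ Lin- ST2+ cells were sorted, where Lin was a panel of surface antigens of other blood lineages, and the cells of each mother's fetuses were pooled, tagged with 1 of 4 antibody hashtags and sequenced together. The litters were DEX-1 (8 fetuses), DEX-2 (9), PBS-1 (5) and PBS-2 (8). The litter is the replicate, with n = 2 per group, so the smallest 2-sided exact permutation p that 2 litters against 2 can give is 0.333.

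The sort was for CD45+ cells, so endothelium was not its target. Of 7268 cells with 1 hashtag, 614 were Cldn5-marked and 6468 had no Cldn5 UMI. The marked cells numbered 134 and 130 in the DEX litters and 156 and 194 in the PBS litters, between 6.89% and 10.3% of each litter. The 16 pan-endothelial markers were found in a median of 87.5% of marked cells, and Cdh5, the endothelial cadherin, was found in 94.5% of them against 1.82% of Cldn5-negative cells. Ptprc, which encodes CD45, gave a UMI in 12.1% of marked and 56.5% of Cldn5-negative cells, so most marked cells showed no RNA of the sorted antigen. The marked cells were also deep, with a median of 22820 UMIs against 7580, and 50.5% of them held a UMI of the epithelial gene Epcam. Whether such barcodes hold more than 1 cell was not tested.

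All 10 genes were higher in Cldn5-marked than in Cldn5-negative cells of the same litters, so Cldn5 picked out the cells that carry them. Kdr (ENSMUSG00000062960, chr5:75932827-75978458, minus strand, GRCm38) measured 223, 266, 258 and 233 UMIs of the gene per 1000000 UMIs (CPM) in marked cells, in the litter order DEX-1, DEX-2, PBS-1, PBS-2 that is kept below, and 3.64, 2.19, 3.35 and 4.03 CPM in their Cldn5-negative cells. Plvap measured 218, 269, 301.4 and 206 CPM in marked cells and 3.57, 3.04, 4.85 and 2.40 CPM in Cldn5-negative cells. In neither gene did the sets overlap. By edgeR's quasi-likelihood test with litter as a block, the log2 difference was 6.17 ± 0.15 (SE, 4 litters) for Kdr and 6.13 ± 0.12 for Plvap. It was smallest for Ednrb, at 3.22 ± 0.17, and for Gja5, at 3.82 ± 0.32. The largest Benjamini-Hochberg adjusted p among the 10 was 1.6e-05. With 67.2% of the 14256 genes tested called in this comparison, and 32.9% called higher in marked cells, a call alone says little. The median log2 difference over the 10 genes was 5.87, against -0.03 over all genes. Sema3g, a secreted semaphorin of arterial endothelium, had 189 UMIs in the marked cells and 3 in all 6468 Cldn5-negative cells. The ratio of its CPM values was 244, with a 95% counting interval from 82.1 to 1192. Single classes of Cldn5-negative cells, described below, came near or passed the marked level for some genes. In mesenchymal-like cells Ednrb stood at 124 CPM, against 81.95 CPM in marked cells. Gja5 stood there at 16.5 against 14.6 CPM, with overlapping counting intervals. Car4 stood at 168 CPM in cells led by S100a8 and Wfdc17, against 220 CPM.

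Genes of the same pathways were read from lists. All 16 pan-endothelial markers were higher in marked cells, as were 12 of the 13 arterial genes tested, 8 of 10 general capillary, 9 of 10 aerocyte and 4 of 6 venous genes, while 2 general capillary genes and 1 aerocyte gene were lower. This was not particular to vascular lists, since all 7 epithelial genes (median 1.55) and all 7 pericyte and smooth muscle genes (median 1.62) were higher too. Of 8 VEGF signalling genes, 7 were higher in marked cells, among them the receptors Flt1, by 5.70 on the log2 scale, and Flt4, by 5.83. The ligand Vegfb was the exception, at -0.01. Of the apelin and endothelin genes, 4 of 5 could be tested. Edn1, the ligand of Ednrb, was higher by 4.73, its processing enzyme Ece1 by 2.23 and the G protein subunit Gnai2 by 0.82, while the other endothelin receptor, Ednra, was lower, at -0.55. Of 8 Notch genes, 4 were higher, led by the arterial ligand Dll4 at 6.05, and Hey2 (-1.52) and Hes1 (-0.95) were lower.

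To place the genes along the vessel, the 614 marked cells were clustered with the 10 genes and Cldn5 left out, and clusters were named from other markers. A cluster of 15 cells led by Cxcl12, Thsd7a and Dkk2 was arterial-like, one of 141 cells led by Procr and Gpihbp1 was general capillary-like, and one of 20 cells led by Itgb5, Prickle2 and Fibin was aerocyte-like. The other 438 cells fell into clusters whose leading genes included a marker of another cell type and were left without a zone name. Among them, 53 cells led by Postn and Tagln also had cell cycle genes such as Ccna2 and Cenpf among their leading genes. No cluster was venous-like or lymphatic-like. The zones come from the same cells as the values, so the levels below are a description with no test. Barcodes with no hashtag call served as a second set of cells: 571 of these were Cldn5-marked, and clustering them on their own gave 43 arterial-like, 314 general capillary-like and 68 aerocyte-like cells, with no litter known. The 314 include a cluster of 67 cells led by cell cycle genes such as Ube2c and Plk1, so the 2 general capillary-like sets were not made up alike.

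Gja4, Gja5 and Sema3g peaked together in arterial-like cells. Gja4 (ENSMUSG00000050234, chr4:127311421-127314039, minus strand) stood at 1938 CPM in arterial-like, 182 CPM in general capillary-like and 27.7 CPM in aerocyte-like cells. In the cells without a hashtag the same order held, at 1418, 112 and 40.5 CPM. Gja5 (ENSMUSG00000057123, chr3:96904693-97077416, plus strand) fell off more sharply: it gave a UMI in 14 of 15 arterial-like cells (93.3%, 95% Wilson interval 70.2 to 98.8%), in 12 of 141 general capillary-like cells (8.51%, 4.93 to 14.3%) and in 0 of 20 aerocyte-like cells (upper bound 16.1%). Without a hashtag these shares were 51.2%, 0.955% and 0%. Sema3g (ENSMUSG00000021904, chr14:31217860-31230352, plus strand) went from 193 CPM in arterial-like to 22.5 CPM in general capillary-like cells, and was not seen in 20 aerocyte-like cells. With finer clustering, which gave 27 arterial-like and 129 general capillary-like cells, the general capillary-like levels were 90.5 CPM for Gja4, 4.28 for Gja5 and 11.01 for Sema3g. The counting intervals of arterial-like and general capillary-like cells did not overlap for any of the 3 genes in either set of cells. The arterial-like cells were deeper, with a median of 25170 UMIs against 9656 and 5154. After each cell was thinned to 2000 UMIs, Gja4 was still found in 93.3% of arterial-like cells, against 18.0% and 0%, and Gja5 in 40.0% against 2.88% and 0%.

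**Figure D1:**
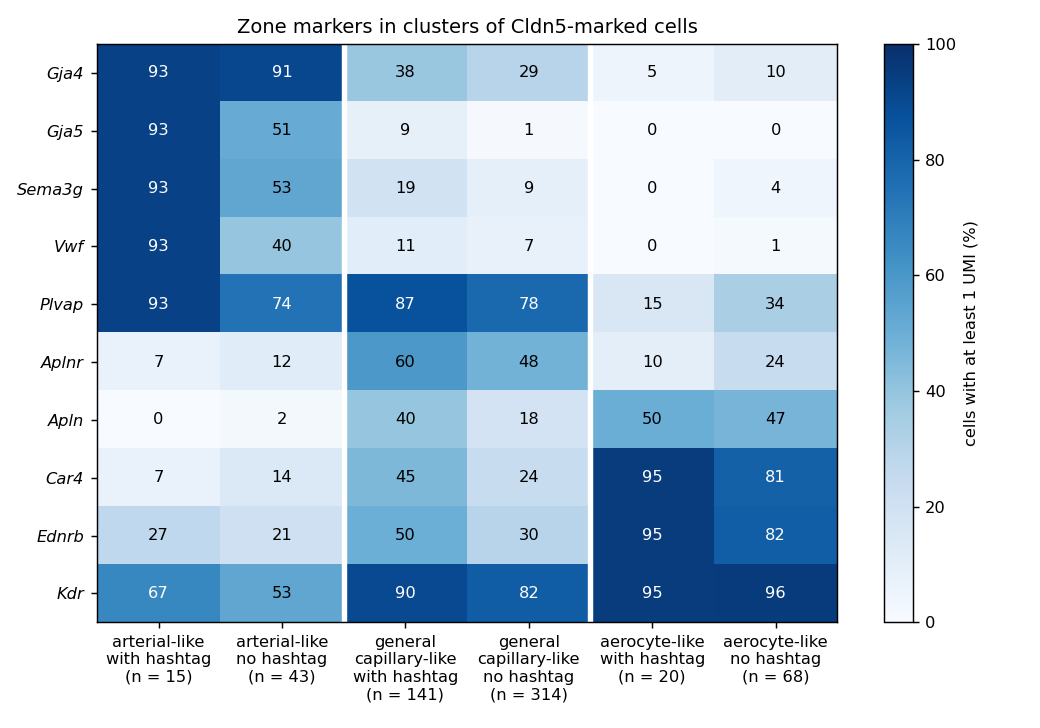
Rows are the 10 genes, columns are the 3 zones in cells with 1 hashtag and in cells with no hashtag (n below each column), and colour and number give the percent of cells with at least 1 UMI. Gja4, Gja5, Sema3g and Vwf have their highest share in the arterial-like column of each set (93.3% for each with a hashtag, 90.7%, 51.2%, 53.5% and 39.5% without). Plvap is also found in 93.3% of arterial-like cells with a hashtag, against 87.2% of general capillary-like cells. Without a hashtag its shares are 74.4% and 78.3%. Aplnr peaks in the general capillary-like columns, and Car4, Ednrb and Kdr reach 95% of aerocyte-like cells with a hashtag.

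The arterial genes were nested within cells as well. Among the 176 zone-named cells with a hashtag, 25 of the 26 cells with Gja5 also held Gja4, while 25 of the 69 cells with Gja4 held Gja5. Among the 425 such cells without a hashtag, 24 of 25 cells with Gja5 held Gja4. Sema3g was found in 19 of the 26 Gja5 cells. Over the 614 marked cells, the gene whose log-normalised level was most like each of the 3 was Cxcl12, a chemokine made by arterial endothelium, with Pearson's r of 0.77 for Gja4, 0.75 for Gja5 and 0.70 for Sema3g among 10736 genes compared. Next came Tm4sf1 for Gja4 (r = 0.72) and Sema3g (r = 0.58), and Thsd7a for Gja5 (r = 0.63). All points come from 1 sequencing run and differ in depth. Some general capillary-like cells held arterial genes too. The 54 with a Gja4 UMI held Cxcl12 in 40.7% and the arterial ephrin Efnb2 in 79.6%, against 2.30% and 40.2% of the 87 without, at median depths of 12210 and 7917 UMIs. Without a hashtag the shares were 15.2% and 54.3% against 4.05% and 36.5%. The 54 cells were also higher in aerocyte genes, with Clic5 in 68.5% against 47.1% and Emp2 in 51.9% against 32.2%. Of the venous genes, Ephb4 was found in 77.8% against 57.5% and Nr2f2 in 22.2% against 26.4%. These partner genes were chosen after their values were seen.

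Promoter sequence was available for 7 of the 10 genes, and 5 are shown: the arterial trio, which varied together across zones, and Car4 and Kdr, the genes in which a motif was found. Each is the 250 bases before the RefSeq start on GRCm38.p6, read 5′ to 3′ on the gene's strand. The windows are chr4:127314040-127314289 (minus strand) for Gja4, chr3:97032152-97032401 (plus) for Gja5, inside the longer gene model that the counts used, chr14:31217623-31217872 (plus) for Sema3g, chr11:84957504-84957753 (plus) for Car4 and chr5:75978456-75978705 (minus) for Kdr. Capitals mark motif letters.
Gja4: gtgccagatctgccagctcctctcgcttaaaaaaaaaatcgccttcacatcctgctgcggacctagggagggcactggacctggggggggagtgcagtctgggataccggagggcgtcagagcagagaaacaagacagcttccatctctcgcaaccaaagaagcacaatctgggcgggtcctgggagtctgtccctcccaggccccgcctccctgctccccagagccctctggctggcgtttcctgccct
Gja5: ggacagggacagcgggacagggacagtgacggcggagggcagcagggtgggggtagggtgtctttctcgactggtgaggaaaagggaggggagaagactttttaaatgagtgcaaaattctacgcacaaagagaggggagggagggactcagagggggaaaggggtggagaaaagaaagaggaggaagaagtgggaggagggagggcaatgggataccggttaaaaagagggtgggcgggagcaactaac
Sema3g: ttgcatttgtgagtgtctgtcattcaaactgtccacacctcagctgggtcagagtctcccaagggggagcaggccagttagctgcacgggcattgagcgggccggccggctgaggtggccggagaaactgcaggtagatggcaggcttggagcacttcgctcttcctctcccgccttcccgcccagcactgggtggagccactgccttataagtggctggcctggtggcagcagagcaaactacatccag
Car4: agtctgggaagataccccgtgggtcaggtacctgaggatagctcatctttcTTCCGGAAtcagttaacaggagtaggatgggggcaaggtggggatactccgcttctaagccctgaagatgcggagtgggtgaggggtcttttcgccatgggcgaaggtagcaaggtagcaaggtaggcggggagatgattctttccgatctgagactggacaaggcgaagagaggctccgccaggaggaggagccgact
Kdr: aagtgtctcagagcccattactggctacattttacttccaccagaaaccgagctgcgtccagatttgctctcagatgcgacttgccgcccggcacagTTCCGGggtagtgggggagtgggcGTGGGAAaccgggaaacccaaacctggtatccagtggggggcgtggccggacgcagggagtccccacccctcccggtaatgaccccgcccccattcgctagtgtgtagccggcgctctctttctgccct
The motifs searched, on both strands, were CCGGAA for ETS factors, GTGGGAA for the Notch effector RBPJ, AACAAT for SOX factors and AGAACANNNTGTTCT for the glucocorticoid receptor. In windows of this length, 12.0% of 32851 promoters hold the ETS letters, 5.42% the RBPJ letters, 9.42% the SOX letters and 0.00913% the receptor letters. Car4 holds 2 overlapping ETS matches, which begin 199 and 197 bases before the start. Kdr holds an ETS match 153 bases and an RBPJ match 129 bases before the start. The windows of Gja4, Gja5, Sema3g, Apln and Ednrb hold none of these letters. A match describes the letters and is not evidence of binding.

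Vwf (ENSMUSG00000001930, chr6:125546774-125686679, plus strand) was carried by 2 sets of cells. In arterial-like cells it gave a UMI in 14 of 15 cells, at 384 CPM, but in 17 of 43 (39.5%) of those without a hashtag, at 252 CPM. Thinned to 2000 UMIs, 40.0% of the 15 held it, and with finer clustering, which put 27 cells in this zone, 55.6% did. In general capillary-like cells it was found in only 15 of 141 (10.6%, 6.55 to 16.8%), and those 15 cells held 143 UMIs. These cells carried genes known from veins: the venous fate regulator Nr2f2 was found in 80.0% of them against 18.3% of the 126 without Vwf, Prss23 in 80.0% against 32.5% and the venous receptor Ephb4 in 93.3% against 61.9%. Genes of the arterial list went both ways. Its matrix gene Fbln5 was found in 80.0% against 17.5%, Eln in 66.7% against 23.8% and Ltbp4 in 53.3% against 18.2%. Sox17 was found in 73.3% against 89.7% and Dll4 in 40.0% against 57.1%. Aplnr was found in 93.3% against 55.6%, whereas Car4 was found in 6.67% against 50% and Gja4 in 13.3% against 41.3%. Ednrb was found in 86.7% against 45.2%. The median depths were 14190 UMIs with and 8764 UMIs without Vwf.

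The cells without a hashtag gave a like picture for most of these genes. There, 23 of 314 general capillary-like cells held Vwf, with Nr2f2 in 56.5% against 17.9%, Ephb4 in 73.9% against 45.7%, Fbln5 in 60.9% against 7.56%, Ednrb in 47.8% against 28.2% and Car4 in 8.70% against 25.1%. Gja4 stood at 26.1% against 29.6% there. The venular receptor Ackr1 was not found in any marked cell with a hashtag. The genes of these pairs were picked from the arterial, venous and member lists after their values were seen, and cells are not replicates, so no test is given. Over the 614 marked cells the genes most like Vwf were Fbln2 (r = 0.68) and Cd59a (r = 0.62), and over the 176 zone-named cells they were Adgrg6 (r = 0.88) and Fbln5 (r = 0.81).

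**Figure D2:**
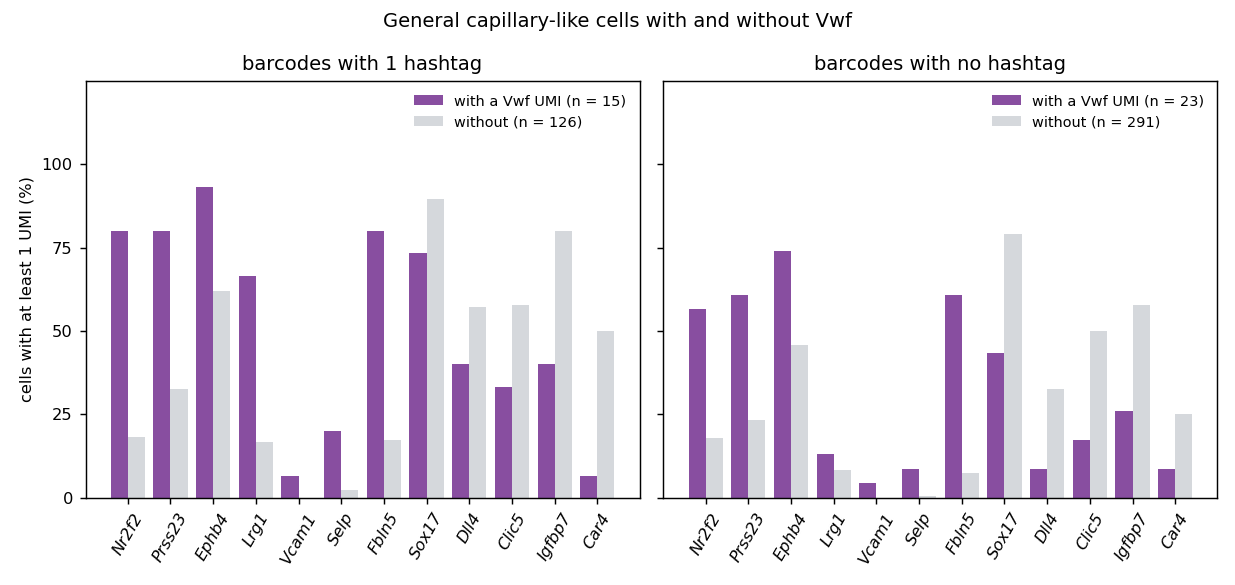
Bars give the percent of general capillary-like cells with at least 1 UMI (y axis) of each gene on the x axis, in cells with a Vwf UMI (purple, n = 15 and 23) and without one (grey, n = 126 and 291), at left for barcodes with 1 hashtag and at right for barcodes with none. Nr2f2, Prss23, Ephb4 and Fbln5 are higher in the purple bars of both panels, and Sox17, Dll4, Clic5, Igfbp7 and Car4 are lower. Eln and Ltbp4 of the arterial list, which are not drawn, were also more frequent with Vwf in both sets.

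Plvap and Aplnr had their highest CPM in general capillary-like cells. Plvap (ENSMUSG00000034845, chr8:71497765-71511752, minus strand), the protein of fenestral and caveolar diaphragms, stood at 676 CPM there, 306 CPM in arterial-like and 55.4 CPM in aerocyte-like cells, and at 846, 472 and 224 CPM without a hashtag. Aplnr (ENSMUSG00000044338, chr2:85136225-85139923, plus strand) stood at 158 CPM in general capillary-like cells, 36.9 CPM in aerocyte-like cells and 2.76 CPM, a single UMI, in arterial-like cells. The receptor and its ligand thus peaked in different zones. Apln (ENSMUSG00000037010, chrX:48025146-48034853, minus strand) stood at 277 CPM in aerocyte-like, 102 CPM in general capillary-like and 0 CPM in arterial-like cells. They were not exclusive, since 36 of the 66 zone-named cells with Apln also held Aplnr. The genes most like Plvap were Ifitm3 (r = 0.66) and Cd93 (r = 0.58), and Aplnr had only weak partners, with Prcp at r = 0.42 and Ackr3 at r = 0.40. Those of Apln were Dpysl3 (r = 0.46) and Ccnd1 (r = 0.43).

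Car4, Ednrb and Kdr were the strongest aerocyte markers. Car4 (ENSMUSG00000000805, chr11:84957786-84966044, plus strand), a membrane-anchored carbonic anhydrase, stood at 2575 CPM in aerocyte-like, 266 CPM in general capillary-like and 2.76 CPM in arterial-like cells, and at 1432, 142 and 21.9 CPM without a hashtag. Ednrb (ENSMUSG00000022122, chr14:103814625-103844402, minus strand), the endothelin B receptor, stood at 923, 90.9 and 77.3 CPM. Its intervals in the 2 lower zones overlapped, whereas without a hashtag general capillary-like cells (105 CPM, 90.7 to 121) lay above arterial-like cells (36.6 CPM, 17.5 to 67.2). Kdr stood at 1301 CPM in aerocyte-like, 390 CPM in general capillary-like and 99.4 CPM in arterial-like cells. The aerocyte-like cells were the shallowest. Thinned to 2000 UMIs, they still held Car4 in 90.0%, Ednrb in 90.0% and Kdr in 95%, against 25.2%, 16.5% and 51.8% of general capillary-like cells.

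Car4 went with other aerocyte genes among general capillary-like cells too. The 64 with a Car4 UMI held Apln in 59.4%, the transcription factor Tbx2 in 62.5% and Emp2 in 64.1%, against 23.4%, 13.0% and 19.5% of the 77 without, at median depths of 12320 and 8130 UMIs. In the cells without a hashtag, where depths were close (4728 and 4647 UMIs), the shares were 26.7%, 36.0% and 34.7% against 15.5%, 15.5% and 14.2%. Plvap went the other way in both sets, at 81.2% against 92.2% and 61.3% against 83.7%. Of the 66 zone-named cells with Apln, 48 held Car4. Only 2 of the 29 zone-named cells with Vwf did. The genes most like Car4 over the marked cells were Pmp22 (r = 0.68) and Itgb5 (r = 0.60), and those most like Ednrb were Itgb5 (r = 0.53) and Kitl (r = 0.51). Kdr was most like Scn7a (r = 0.66) and Cdh5 (r = 0.64).

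In the 438 marked cells without a zone name, the 10 genes were found beside genes of other cell types, each at a lower CPM than in general capillary-like cells: Plvap stood at 184 against 676 CPM, Vwf at 8.91 against 80.3 and Gja5 at 3.25 against 23.6. Their endothelial share differed between clusters, so the genes were read per 1000 UMIs of the 16 pan-endothelial markers. Car4 gave 60.7 such units in 83 cells led by Tppp3, Krt19 and Pdpn, which include genes of alveolar type 1 epithelium, 42.1 in 164 cells led by Sftpa1 and Sftpc, genes of type 2 epithelium, and 11.4 in 53 cells led by Postn and Tagln. The zone-named values were 129 in aerocyte-like, 20.5 in general capillary-like and 0.261 in arterial-like cells. Gja4 was highest among the cells without a zone name in 44 led by the mast cell genes Cpa3 and Cma1, at 52.0, against 184 in arterial-like cells. Whether these barcodes hold pairs of cells was not tested.

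Among cells with no Cldn5 UMI, most of the genes were at a floor. Free RNA in the droplets gives any cell a few UMIs of genes it does not express. Mast or basophil-like cells, which should lack all 10, held Kdr in 1.29% of 3169 cells, at 1.64 CPM with a median of 7171 UMIs, and Cdh5 at 1.72 CPM. ILC2-like cells, the group 2 innate lymphoid cells the sort was designed for, held Kdr at 1.48 CPM and Cdh5 at 2.19 CPM. Some of the genes stood above that floor in 1 or more classes, and Ednrb, Gja4, Gja5, Car4, Plvap, Vwf and Kdr are described here.

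Ednrb RNA was found in ILC2-like cells. It measured 12.1 CPM (10.5 to 13.9), from 204 UMIs in 134 of 1982 cells (6.76%), against 0.783 CPM (0.485 to 1.20) and 0.536% of mast or basophil-like cells at nearly the same median depth, 7218 and 7171 UMIs. The litters gave 13.6, 10.4, 12.7 and 11.5 CPM, so DEX and PBS litters overlapped. Thinned to 2000 UMIs, 1.68% of ILC2-like and 0.206% of mast or basophil-like cells held it. Per 100 UMIs of Cdh5 it stood at 551 in ILC2-like, 45.7 in mast or basophil-like and 18.7 in Cldn5-marked cells, so the 2 genes did not keep 1 ratio. The ILC2-like cells with Ednrb were the labelled type by other genes, with Gata3, the ILC2 transcription factor, in 93.3% and the collagen gene Col1a2 in 0.746%. They were deeper than those without, with medians of 10760 and 6995 UMIs, and 15 of them held at least 3 Ednrb UMIs.

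Mesenchymal-like cells carried Ednrb, Gja4 and Gja5. Ednrb measured 124 CPM in 206 cells, with 181, 124, 87.5 and 81.5 CPM by litter. The DEX litters lay above the PBS litters, in a class of 31 to 61 cells per litter, and the difference was not tested in this class. The 62 cells with Ednrb held the fibroblast receptor Pdgfra in 54.8% and Myh11 in 41.9%, against 18.8% and 19.4% of the others, and Tcf21 in 48.4% against 79.2%. Gja4 was found in 21 cells, and the mural cell genes Pdgfrb and Cspg4 were each found in 85.7% of them, against 17.3% and 14.1% of the others. Its level was 35.3, 53.2, 36.8 and 37.0 CPM by litter. Gja5 was found in 26 cells, of which 96.2% held the fibroblast gene Tcf21 against 66.1% of the others, while Pdgfrb was nearly the same (26.9% and 23.9%).

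Car4 was found in myeloid cells. In 237 cells led by S100a8 and Wfdc17, left unnamed, it measured 168 CPM, from 336 UMIs in 32 cells and as many as 83 UMIs in 1 cell, with 2 Cdh5 UMIs in the whole class. By litter it was 136, 272, 69.4 and 165 CPM, and the groups overlapped. The cells with Car4 held Lyz2 in 100% and S100a9 in 0%, against 94.1% and 14.1% of the cells without Car4. Plvap reached 10.7 CPM in 216 cells led by Prtn3, left unnamed, whose leading genes also include Car1, Mpo, Gfi1b and Klf1. There 22.2% of cells held Plvap, against 1.17% of mast or basophil-like cells. Vwf stood at 3.33 CPM (1.98 to 5.27) in the same class, from 18 UMIs, against 0.0746 CPM in mast or basophil-like cells. The median depth of the class was 23800 UMIs and Cdh5 stood at 0.370 CPM. Kdr stood at 10.99 CPM (8.95 to 13.4) in 426 epithelial-like cells, from 101 UMIs with at least 3 in each of 16 cells, where Cdh5 was at 4.03 CPM.

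**Figure D3:**
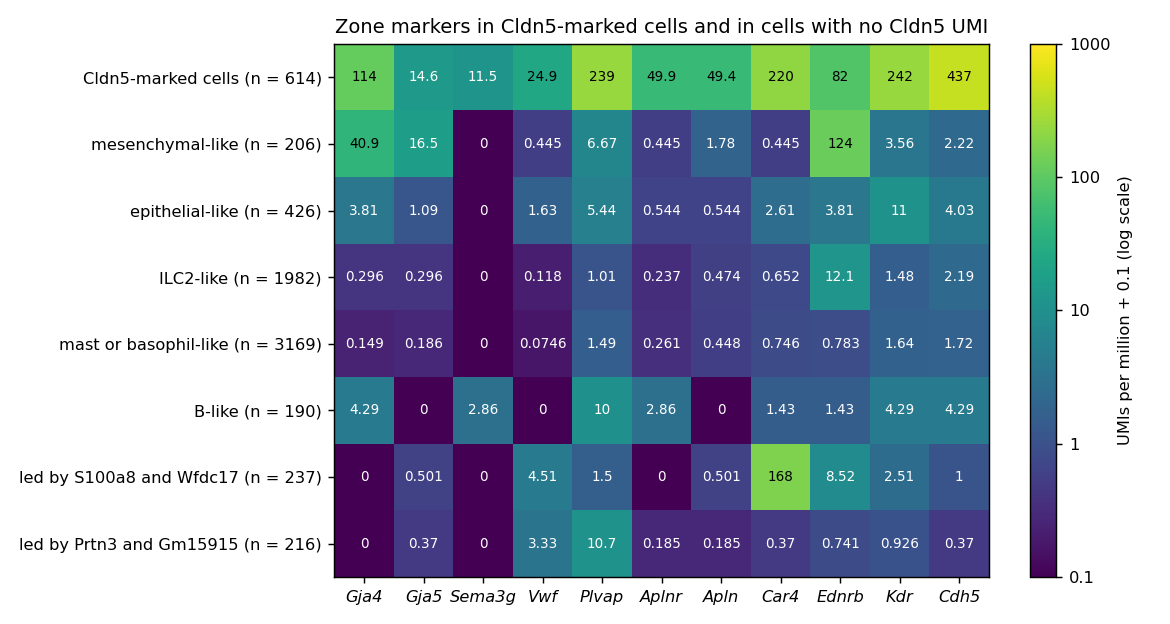
Rows are Cldn5-marked cells and classes of cells with no Cldn5 UMI, columns are the 10 genes and Cdh5, numbers are CPM and colour is CPM plus 0.1 on a log scale. Ednrb stands out in ILC2-like and mesenchymal-like cells, Gja4 and Gja5 in mesenchymal-like cells and Car4 in the cells led by S100a8 and Wfdc17, where Cdh5 stays between 1.00 and 2.22 CPM.

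Between DEX and PBS litters, none of the 10 genes passed the test over all Cldn5-marked cells, and Gja4, Gja5, Sema3g and Vwf each had a lower CPM in both DEX litters than in both PBS litters. Gja4 measured 87.0 and 103 CPM in the DEX litters against 139 and 117 CPM in the PBS litters. Gja5 measured 8.41 and 12.7 against 18.8 and 16 CPM, and Sema3g 9.70 and 10.2 against 13.3 and 12.0 CPM. Vwf measured 6.47 and 18.7 against 43.7 and 26.3 CPM. In the CPM of these 4 genes the groups did not overlap, and in that of the other 6 they did. With 2 litters against 2, full separation has a 2-sided exact permutation p of 0.333, so it says little alone. Its share over all genes was not counted. The percent of cells with a UMI sorted the genes differently: Sema3g overlapped there (15.6% ± 3.0 in DEX and 16.1% ± 5.6 in PBS litters, SD), while Plvap (70.1% ± 0.97 and 82.9% ± 3.8), Aplnr, Ednrb and Kdr were lower in both DEX litters. The median depth of marked cells was 17730, 17180, 16670 and 34340 UMIs by litter, and its part in these shares was not tested. The fit called 0.0337% of 11870 genes, 4 in all, and 581 had an unadjusted p under 0.05. The marked cells held between 2837253 and 7000202 UMIs per litter.

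The log2 difference, DEX minus PBS, was -1.45 ± 0.40 (SE, n = 2 litters per group) for Vwf, -0.71 ± 0.25 for Gja5, -0.43 ± 0.13 for Gja4 and -0.34 ± 0.23 for Sema3g. Leaving out DEX-1 gave -0.43 for Gja5 and -0.84 for Vwf, and leaving out DEX-2 gave -1.04 and -2.39. The Benjamini-Hochberg adjusted p from edgeR's quasi-likelihood test was 0.685 for Vwf, 0.931 for Gja5, 0.799 for Gja4 and 0.996 for Sema3g. Over the alternatives tried, the adjusted p of Vwf ran from 2.46e-08 to 1.00. The 4 genes called were Scgb3a2, Gzmb, Car1 and Tnfrsf18, named after their values were seen, all higher in DEX litters. DESeq2 called 11 genes.

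Of the capillary and aerocyte genes, Kdr, Ednrb, Plvap and Car4 lay closest to no difference. Kdr measured 223 and 266 CPM in DEX litters and 258 and 233 in PBS litters, a log2 difference of -0.00 ± 0.12. Ednrb measured 83.8 and 86.7 against 97.2 and 71.7 CPM (0.03 ± 0.15), and Plvap 218 and 269 against 301.4 and 206 CPM (-0.05 ± 0.17). Car4 measured 182 and 284 against 242 and 200 CPM (0.08 ± 0.20). Apln measured 45.9 and 64.5 against 63.6 and 37.7 CPM (0.16 ± 0.24), and Aplnr 42.4 and 51.1 against 69.7 and 42.9 CPM (-0.24 ± 0.22). Aplnr was lower in DEX litters in 15 of 16 alternatives. A p that misses the threshold with 2 litters per group does not show that these levels were equal.

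**Figure D4:**
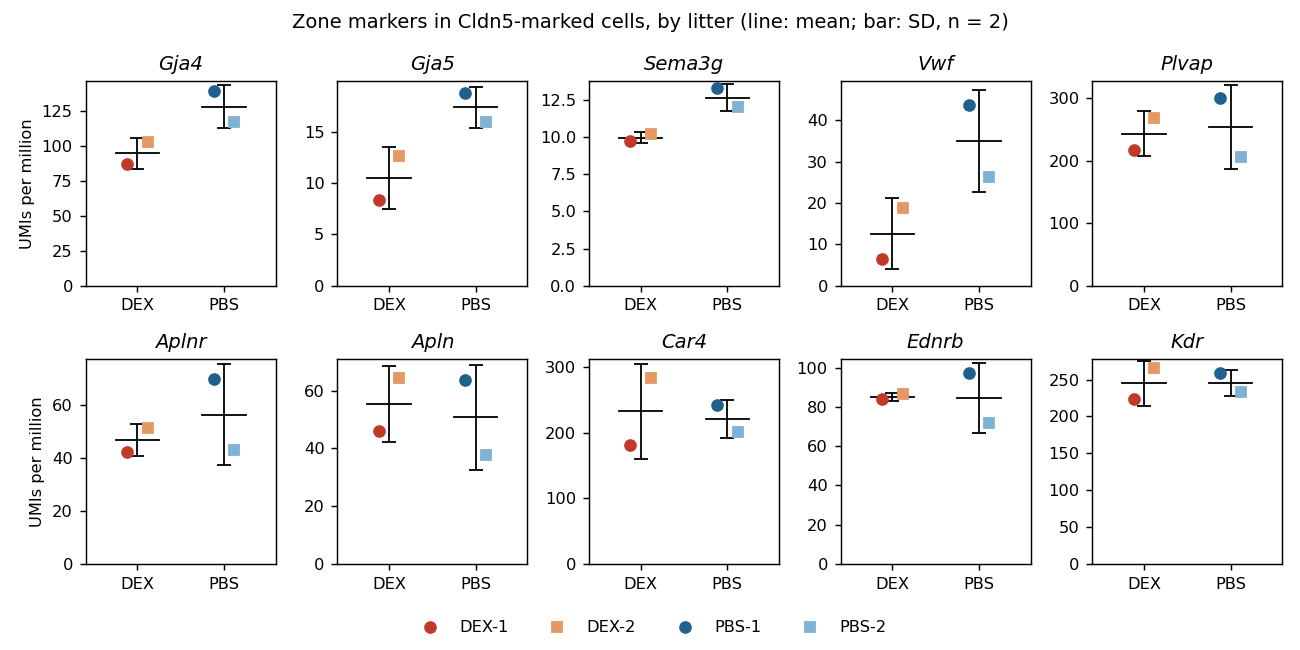
Each panel is 1 of the 10 genes, each point is 1 litter's CPM over its Cldn5-marked cells (y axis, from 0), the long line is the group mean and the bar its SD (n = 2 litters). Both DEX points lie below both PBS points for Gja4, Gja5, Sema3g and Vwf, and the groups overlap for the other 6 genes.

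The make-up of the marked cells also differed between litters. Arterial-like cells numbered 2, 2, 4 and 7 by litter, and aerocyte-like cells 3, 2, 15 and 0. Cells without a zone name made up 70.9%, 67.7%, 55.8% and 86.6% of the marked cells, and the epithelial list took 4.195%, 4.82%, 4.44% and 6.79% of their UMIs, so PBS-2 stood apart from the rest. The part of this make-up in the differences was not tested, and fewer arterial cells and less RNA per cell cannot be told apart in litter sums. Per 1000 pan-endothelial UMIs, Vwf still did not overlap, at 1.19 and 2.66 against 5.86 and 4.51. The same held for Gja4, at 16.03 and 14.6 against 18.7 and 20.1, and for Gja5, at 1.55 and 1.81 against 2.52 and 2.74, while Sema3g overlapped, at 1.79 and 1.46 against 1.79 and 2.06.

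Summed over general capillary-like cells, Vwf was lower in DEX litters. This fit was added after seeing the data. Vwf measured 13.1 and 22.8 CPM in the DEX litters against 166 and 96.3 CPM in the PBS litters. The UMIs behind these values were 5, 11, 92 and 35, in 2 of 34, 3 of 38, 7 of 50 and 3 of 19 cells. Few cells therefore decide them. Fewer cells with Vwf and less Vwf RNA per cell cannot be told apart in these sums. The log2 difference was -2.81 ± 0.36 (SE) with an adjusted p of 0.000105, and leaving out each litter in turn gave -3.30 to -2.31, each called. In this fit 0.298% of 6048 genes were called. Of the 9 members tested only Vwf was among them, and Gja4 was at -0.77 ± 0.20 with an adjusted p of 0.171.

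Fbln5 and Eln, which encode elastic fibre proteins, were the called genes among the lists, at -2.68 ± 0.27 and -2.53 ± 0.43. Both were also more frequent in the general capillary-like cells with Vwf described above, Eln in 66.7% against 23.8%. Neither was called over all zone-named cells, where none of the 12 arterial list genes tested was called. With all 176 zone-named cells summed, Vwf was at -1.88 ± 0.28 (adjusted p = 0.00732, called also without each litter in turn, -2.62 to -1.44), and Gja4 at -1.05 ± 0.22 (adjusted p = 0.0851), with 0.147% of 6801 genes called. Within the arterial-like cells themselves, Gja4 measured 1813 and 1594 CPM in DEX litters and 2054 and 2025 CPM in PBS litters, from 2, 2, 4 and 7 cells. Vwf there measured 188 and 420 against 360 and 440 CPM, and the groups overlapped.

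**Figure D5:**
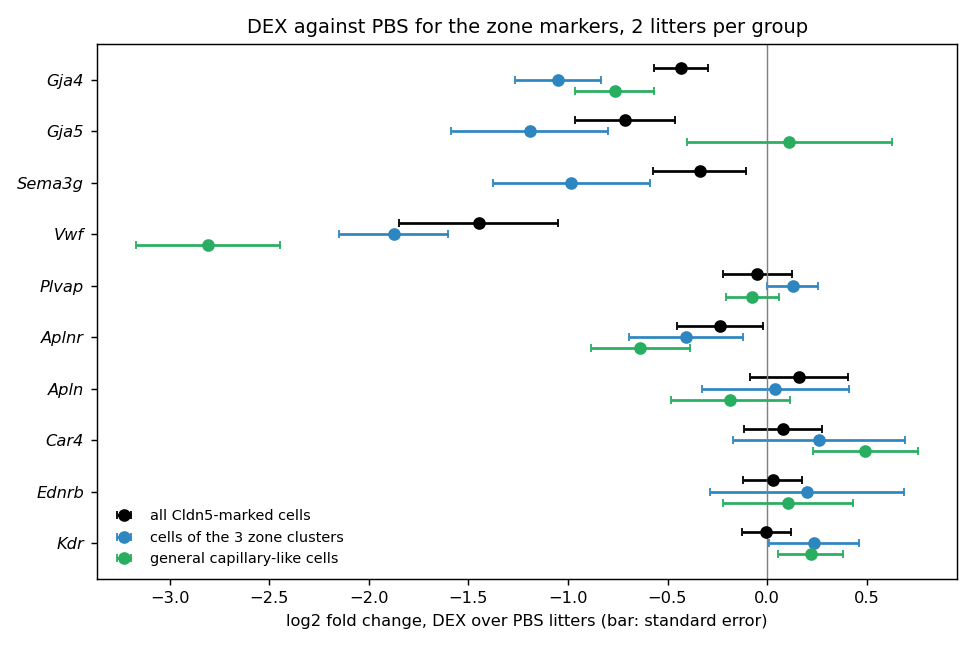
Points give the log2 fold change, DEX over PBS litters (x axis), with its standard error as a bar, for each gene on the y axis, in all Cldn5-marked cells (black), in cells of the 3 zones (blue) and in general capillary-like cells (green, where Sema3g had too few counts to test). Vwf lies farthest to the left in each, at -1.45, -1.88 and -2.81.

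Of the arterial list, 13 genes were tested in all marked cells. None was called, and none of the 13 lay above 0, with a median of -0.30 against -0.00 over all genes. Lists of other cell types lay as far from 0 in the same fit, with none called: the pericyte and smooth muscle list had a median of -0.35 over 7 genes, the ILC2 list 0.48 over 6, with 5 above 0, and the mast or basophil list 0.37 over 6. Their part in the vascular values was not tested. For the venous list the median was -0.44 over 6 genes, with 1 above 0 and none called. The general capillary and aerocyte lists, of 10 genes each, had medians of -0.06 and -0.13, and the VEGF list, of 8 genes, of -0.10. The lists were chosen with earlier results of these data known.

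In Cldn5-negative cells 7 of the 10 genes could be tested and none was called; the fit called 0% of 14726 genes, with 996 at an unadjusted p under 0.05 and 50 called by DESeq2. Gja4 lay at 0.67 ± 0.37 and Vwf at -1.21 ± 0.43. Normalised Vwf levels there were 0.46 and 0.46 CPM in DEX against 0.88 and 1.26 CPM in PBS litters, from 48 UMIs in all. Lower Vwf in both DEX litters was therefore not particular to the marked cells. The test of whether the DEX difference itself differed between marked and Cldn5-negative cells called 0% of 15202 genes, with 654 at an unadjusted p under 0.05. Gja4 was at -1.10 ± 0.26 in that test, with an adjusted p of 0.710 from edgeR. In ILC2-like cells, a fit added after seeing the data in which 2.39% of 10552 genes were called, Ednrb was the only member with enough counts to test, and it lay at 0.02 ± 0.22 (adjusted p = 0.9904). Of the vascular lists, the Notch targets Hes1 (-0.84 ± 0.09) and Hey1 (0.55 ± 0.11) were called there, in opposite directions.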

How the data were processed

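Single-cell RNA and hashtag libraries of sorted fetal lung cells from 4 litters were sequenced as 1 pool. The deposited matrix holds UMI counts per gene and barcode that the authors made with Cell Ranger 7 on mm10, as the submitters' processing notes state; the annotation release is not given in the sources used here. UMI depth bounds every value, and intervals cover counting error only.

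Barcodes with at least 200 genes and at most 5% mitochondrial UMIs were kept (10409 of 10648). Litters were called from the deposited hashtag counts with HTODemux in Seurat 5.3.0 (quantile 0.99), giving 7268 cells with 1 hashtag. Of the others, 2405 had no hashtag and 736 more than 1; the latter were dropped, no doublet caller was run and doublets within a litter remain. Cldn5-marked means at least 2 Cldn5 UMIs, and 186 cells with 1 UMI were in neither set. Marked cells were clustered with scanpy 1.11.5 and leidenalg 0.10.2 (log-normalised to 10000 UMIs, 2000 variable genes, 20 components, 15 neighbours, resolution 0.5) without the 10 genes, Cldn5 and sex-linked genes. The limits for naming a cluster were set after seeing the clusters. Ccl21a, on more than 1 row, was left out.

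UMIs were summed per litter and tested with edgeR 4.0.16's quasi-likelihood test (R 4.3.3, TMM, filterByExpr, 2-sided, Benjamini-Hochberg over all genes, calls at 0.05), after the scripts were tested on simulated data. The study tested cell by cell; litters are the replicates here. Nothing says that litters were handled in separate batches. DESeq2 1.42.0, MULTIseqDemux, other cell limits, thinning, a mother-number block and leaving out each litter were alternatives. Zones, partner genes and correlations are descriptions. Named were all 10 genes, the 2 genes most like each (r of at least 0.3) and genes of the lists called in a DEX fit; where marked and Cldn5-negative cells were compared, the many called are given as counts with examples. The members and lists were chosen with earlier results of these data known. Positions are GENCODE M21 (GRCm38), and promoters are RefSeq.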

Additional observations from a re-analysis of the deposited data

Results flagged for a closer look

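Barcodes with more than 1 hashtag entered no comparison, and they carried a signal of the same kind as the marked cells. Of these 736 barcodes, 190 were Cldn5-marked, a share of 25.8% (95% Wilson interval 22.8 to 29.1%), against 614 of 7268 cells with 1 hashtag, or 8.45%. Their median depth was 37510 UMIs, against 22820 in marked cells with 1 hashtag. Barcodes without a hashtag were also often Cldn5-marked, at 23.7% of 2405, but at a median of 5710 UMIs. The part of mixed droplets in the marked cells was not tested.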

How the results depend on the processing

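The 10 genes stayed higher in Cldn5-marked cells under each alternative run for that comparison. The count of genes called DEX against PBS in marked cells, 4, became 11 with DESeq2, 190 with no filter on low genes, 2 with at least 1 Cldn5 UMI and 0 with at least 3. It was 0 with MULTIseqDemux and when thinned to 2000 UMIs, 1 without cells holding Ptprc, 10 in zone-named cells and 18 in general capillary-like cells, and ran from 2 (without DEX-1) to 36 (without DEX-2) when each litter was left out, with 7 without PBS-1. The fits in zone-named, general capillary-like and ILC2-like cells, and the barcodes without a hashtag, were added after seeing the data. In Cldn5-negative cells the count of 0 became 50 with DESeq2 and 35 with no filter, and 0 to 2 without each litter. For the difference between the sets, 0 became 210 with no filter, where Gja4 was called (adjusted p = 0.00866 from edgeR). Leaving out a litter leaves 1 in its group, assumed to vary like the other group.

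Vwf was lower in DEX litters in all 15 alternatives and called in 4: with no filter, without DEX-2 (-2.39, adjusted p = 0.0474), in zone-named and in general capillary-like cells. Without DEX-1 it was -0.84. Without PBS-1, Gja4 was called in zone-named cells (adjusted p = 3.0e-13) and in general capillary-like cells (0.0140). Several small differences changed sign. Gja4 was 0.0012 when thinned and Gja5 0.11 in general capillary-like cells. Plvap was 0.015 with at least 3 Cldn5 UMIs, 0.026 without Ptprc and 0.13 in zone-named cells. Apln was -0.18 in general capillary-like cells. Car4 was -0.0022 and Ednrb -0.045 with at least 1 Cldn5 UMI, and Ednrb -0.38 when thinned. Kdr was 0.00086 with DESeq2, 0.037 with at least 4 pan-endothelial markers, 0.052 with at least 3 Cldn5 UMIs, 0.043 with MULTIseqDemux, 0.0028 without Ptprc, 0.016 when thinned, 0.22 in general capillary-like and 0.23 in zone-named cells. Without each litter, Plvap ran from -0.27 to 0.20, Aplnr from -0.54 to 0.088, Apln from -0.17 to 0.51, Car4 from -0.29 to 0.38, Ednrb from -0.15 to 0.21, Kdr from -0.15 to 0.13 and Ednrb in ILC2-like cells from -0.19 to 0.17. At Leiden resolution 1.0 arterial-like cells numbered 27 in place of 15, and 2 of the 30 zone shares moved beyond their interval; thinning moved 19 of 30.

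Mother numbers were shared between the groups but did not pair the litters. Deviations of litters with the same number correlated at -0.0749 over 11870 genes in marked cells and 0.0878 over 14726 in Cldn5-negative cells. With the replicate block, 12 genes were called in marked cells in place of 4, 0 in Cldn5-negative cells and 311 in place of 252 in ILC2-like cells, where Ednrb was -0.0069. The 252 became 111 with DESeq2, 488 with no filter and 424 without PBS-2. No member was called under the block in these fits.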
